A study of Homo sapiens with 4 samples.

Results

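The genes described here are 40 members of the NF-kappaB inflammatory module, comprising the NF-kappaB transcription factors, their activating kinases and inhibitors, and cytokines, chemokines, survival factors and enzymes, many of them known to be switched on by NF-kappaB. They were chosen by name with earlier results of these data known, 39 from a list of symbols and CXCL8 (also called IL8) in addition. All 40 were present among the 28930 gene symbols of the count table. Libraries were made from total RNA of MDA-MB-231 cells, an established line of triple-negative breast cancer, and no other line was included. In 2 libraries the cells carried an siRNA knockdown of hTrmt13, and in 2 libraries they carried a control siRNA, with no other agent named in the labels. hTrmt13 is the product of TRMT13, a tRNA methyltransferase, and the sources used here do not give the siRNA sequences, doses or times. The study set knockdown against control cells to find genes that hTrmt13 regulates at the level of transcription.

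In resting cells, NF-kappaB dimers of the RELA, RELB, REL, NFKB1 and NFKB2 proteins are held in the cytoplasm by inhibitors of the IkappaB family. Signals from IL-1, TNF and Toll-like receptors activate the IkappaB kinases, the inhibitors are destroyed, and the dimers enter the nucleus and induce chemokines, survival genes and their own inhibitors. A separate route through the kinase encoded by MAP3K14 processes the NFKB2 precursor and releases RELB dimers. Triple-negative breast cancer lines, MDA-MB-231 among them, are known for constitutive NF-kappaB activity and for secreting inflammatory cytokines.

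NF-kappaB dimers bind the kappaB consensus, a motif of 10 bases. Both strands of the 250 bases before each start site in the RefSeq promoter table (GRCh38.p14) were searched for it, and overlapping matches were merged. Of the 32 members with an entry, 17 (53.1%) held a match in at least 1 of their windows, against 6.28% of all 27305 genes with an entry. CSF1, CSF3, CXCL16, CCL2, CCL5, IKBKB, RELB and NFKBIE had no entry. The stretches below are shown because they belong to the members with the smallest p-values that held a match, NFKBIB, NFKB2 and TNFAIP3, and to NFKBIA, the best known target of the feedback. Each runs 5′ to 3′ on the strand of its gene, with the match in capitals and 10 bases on either side, and the NFKB2 stretches come from windows of more than 1 start site.
NFKBIB, chr19:38899931-38899961: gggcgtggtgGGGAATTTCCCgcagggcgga
NFKB2, chr10:102394461-102394491: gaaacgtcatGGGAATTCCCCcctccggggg
NFKB2, chr10:102394490-102394519: gggccgagaaGGGGCTTTCCcggccctgag
NFKB2, chr10:102395519-102395548: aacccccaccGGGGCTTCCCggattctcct
NFKB2, chr10:102395674-102395703: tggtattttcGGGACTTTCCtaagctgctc
TNFAIP3, chr6:137867182-137867211: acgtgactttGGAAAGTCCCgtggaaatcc
TNFAIP3, chr6:137867194-137867223: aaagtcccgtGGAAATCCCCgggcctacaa
NFKBIA, chr14:35404811-35404840: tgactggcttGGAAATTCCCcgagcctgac

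The neighbouring chemokine genes CXCL1, CXCL2 and CXCL3 on chromosome 4 carry nearly the same stretch, and are shown because their transcripts are close copies as well, so that reads may be split between them or lost.
CXCL1, chr4:73869304-73869334: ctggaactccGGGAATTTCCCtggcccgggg
CXCL2, chr4:74099253-74099283: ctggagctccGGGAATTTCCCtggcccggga
CXCL3, chr4:74038748-74038778: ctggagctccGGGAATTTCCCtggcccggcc
Of 31 bases, 2 differed between CXCL1 and CXCL2, 3 between CXCL1 and CXCL3, and 2 between CXCL2 and CXCL3. A match in this window is a description of the sequence and does not show that a factor binds there in these cells.

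Library totals lay between 9777267 and 13098985 counts, and levels are given as depth-scaled CPM with TMM factors (TMM CPM). TRMT13 stood at 3.52 and 4.79 CPM in the knockdown libraries and at 14.9 and 18.9 CPM in the control libraries, so each library went with its label (log2 fold change -2.02, SE 0.34, edgeR adjusted p = 0.0399). VIM, CD44, KRT8 and KRT18, which mark the line, summed to 2805 and 2890 CPM in knockdown and to 3130 and 3192 CPM in control. CD44 had 155.66 and 160.29 CPM in knockdown and 272.65 and 272.97 CPM in control (log2 fold change -0.79, SE 0.20, edgeR adjusted p = 0.0790). DESeq2 called CD44 lower. On the log2 scale VIM stood at 0.02, KRT8 at -0.28 and KRT18 at -0.43. ESR1 and PGR had no count in any library. ERBB2 RNA was present, at 166.3 and 122.6 CPM in knockdown and 123.9 and 112.0 CPM in control. CDH1 had 1 and 0 raw counts in knockdown and 0 and 1 in control. EPCAM had 2.19 and 2.85 CPM in knockdown and 3.55 and 6.34 CPM in control. Of 10 blood cell markers, which could carry NF-kappaB targets of their own, 5 had no count in any library, and the list summed to 0.856 and 1.12 CPM in knockdown and 0.928 and 1.15 CPM in control. The 5 fibroblast markers summed to 32.2 and 50.8 CPM in knockdown and 55.9 and 70.7 CPM in control, chiefly COL1A1 and PDGFRB. Of the other fibroblast markers, DCN had no count in any library, and COL1A2 had 1 count, in control replicate 2. LUM had at most 3 counts in a library. The 3 endothelial markers in the table summed to 1.27 and 2.76 CPM in knockdown and 7.81 and 13.05 CPM in control, chiefly CDH5 and KDR. CDH5, with 0 and 2 raw counts in knockdown and 63 and 49 in control, was itself lower at the threshold used below (edgeR adjusted p = 0.0296, and DESeq2 and limma-trend called it as well). CDH5 passed the filter on low counts, used below, only through its control libraries. The part of these markers in the results below was not tested. In these bulk libraries, fewer cells that express a gene and less RNA per cell cannot be told apart.

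Of the 40 members, 26 passed the filter on low counts and were tested with edgeR's quasi-likelihood test, fitted on all 13022 genes that passed. At a Benjamini-Hochberg adjusted p under 0.05, 1 member fell and 0 rose in the knockdown, where 1.96% of all tested genes were lower and 1.03% higher (2.99% in either direction). The 1 call among 26 members is near that background. With the replicate number as a block in the edgeR fit (the replicate block), 15 of 26 members were called, against 40.1% of all tested genes. No label says that these numbers mark a shared culture or batch. Below, edgeR alone means the fit on filtered counts without this block. On the same libraries DESeq2 called 2 of 27 members, CXCL16 lower and NFKBIB higher, where it called 8.55% of all genes, and limma-trend called CXCL16 alone, where it called 3.09%. At an unadjusted p under 0.05 there were 9 members (34.6% of those tested, against 24% of all tested genes), 5 lower (12.5% of all tested genes) and 4 higher (11.5%). The knockdown and control libraries did not overlap in 17 of the 26 members (65.4%), against 54.3% of all tested genes, with 12 lower (26.8% of all tested genes) and 5 higher (27.5%). The median log2 fold change was -0.30 over the 26 members and 0.01 over all tested genes, and values ran from -3.21 for CXCL16 to 1.56 for NFKBIB. Because the members were chosen with earlier results of these data known, these shares and medians are descriptions and test nothing. Without control replicate 1 the members' median was -0.0815. Here and below, a fit without 1 library leaves 1 library in its group, which is assumed to vary like the libraries of the other group. Its p rests on the spread of the other group and on a spread shared over all tested genes. Such fits called a larger share of all tested genes than the fit on all libraries, so a call in them carries less weight.

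**Figure D1:**
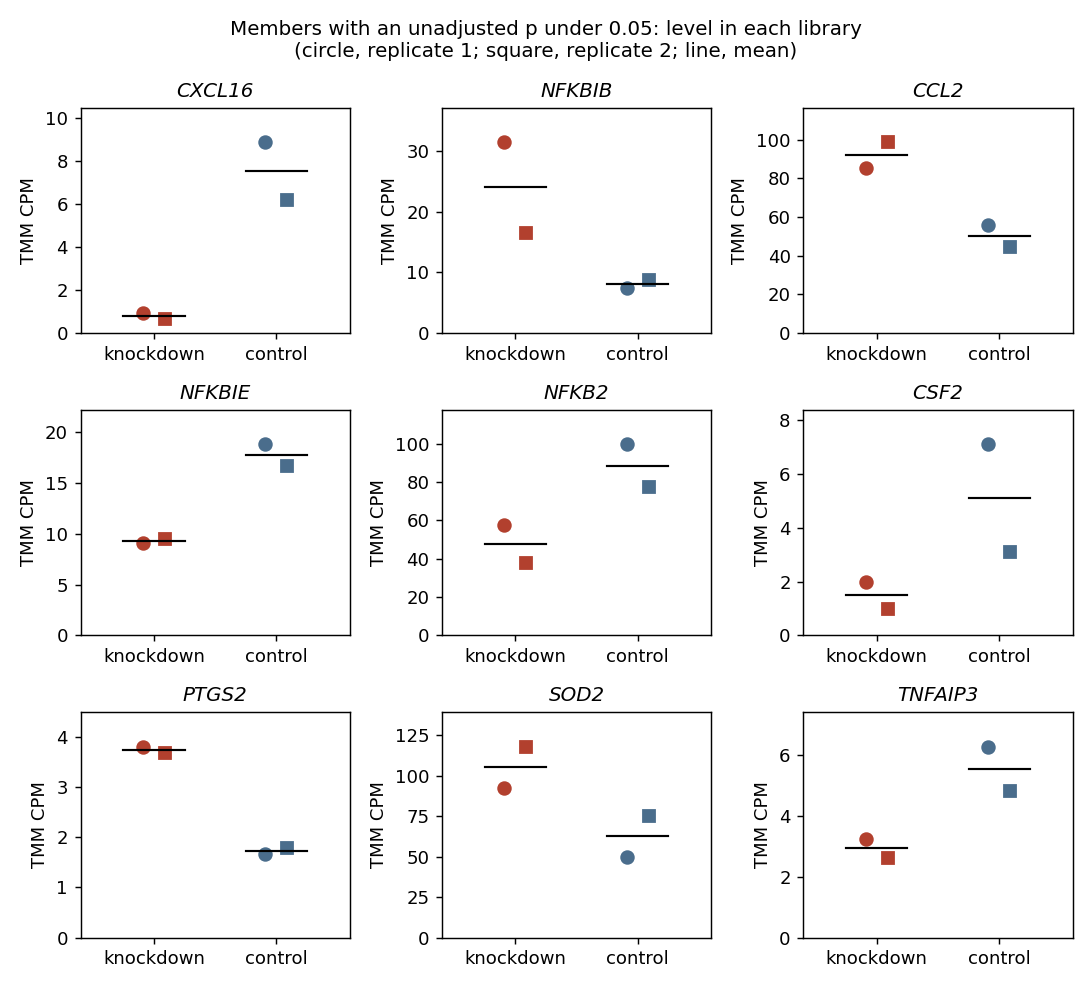
TMM CPM (vertical axes, each starting at 0) of the 9 members with an unadjusted p under 0.05, in the knockdown libraries (left, red) and the control libraries (right, blue), with circles for replicate 1, squares for replicate 2 and a line at the mean. The knockdown libraries lie below both control libraries for CXCL16, NFKBIE, NFKB2, CSF2 and TNFAIP3 and above them for NFKBIB, CCL2, PTGS2 and SOD2, and the adjusted p is under 0.05 for CXCL16 alone.

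CXCL16 was the member that fell. It encodes a chemokine made as a membrane protein, which draws lymphocytes that carry the receptor CXCR6 when it is shed. CXCL16 had 10 and 9 raw counts in the knockdown libraries and 85 and 80 in the control libraries, or 0.951 and 0.674 CPM against 8.87 and 6.19 CPM. The groups lay far apart, and each group's libraries were close to one another. The fall was 9.23-fold (log2 fold change -3.21, SE 0.44, edgeR adjusted p = 0.0296). CXCL16 and IL1B passed the filter on low counts only through their control libraries. Of the CXCL16 exons in GENCODE release 29, 85 bases (3.04%) lie opposite exons of MED11, and no source used here gives the strand setting of the counting.

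Among the other chemokines, CCL2, which attracts monocytes, had 85.2 and 98.9 CPM in knockdown and 55.7 and 44.3 CPM in control. Both knockdown libraries were above both control libraries, by 1.84-fold in the fit, and the difference did not pass the threshold (log2 fold change 0.88, SE 0.24, edgeR adjusted p = 0.0921). CXCL8, which attracts neutrophils, had 5.52 and 3.22 CPM in knockdown and 3.65 and 0.928 CPM in control, and its groups overlapped (log2 fold change 0.96, SE 0.65, edgeR adjusted p = 0.417). Leaving out 1 library gave CCL2 values of 0.724 to 1.06. For CXCL8 the values ran from 0.249 without control replicate 2 to 2.22 without control replicate 1.

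The remaining 9 chemokines of the module were below the filter. CXCL5 and CXCL6 had no count in any library, which allows a level of up to 0.225 to 0.313 CPM (3 counts, counting error only). CXCL1 had 6 and 1 counts in knockdown and 8 and 2 in control, CXCL2 had 13 and 7 against 6 and 7, and CXCL3 had 7 and 4 against 4 and 2. Summed as 1 feature, these neutrophil attractants had 26 and 12 counts in knockdown and 18 and 11 in control, overlapping groups with a log2 difference of 0.31 (SE 0.66, edgeR adjusted p = 0.815). CXCL10 and CXCL11, chemokines best known as interferon targets, had 8 and 0 counts and 2 and 0 counts in knockdown, against 0 and 0 and 2 and 0 in control. CCL5, a T cell attractant, had 10 and 0 counts in knockdown and 2 and 0 in control, and CCL20, which attracts cells with CCR6, had 4 and 0 against 1 and 0. For these last 4 genes every count came from a replicate 1 library, and no difference between knockdown and control was detectable at this depth.

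**Figure D2:**
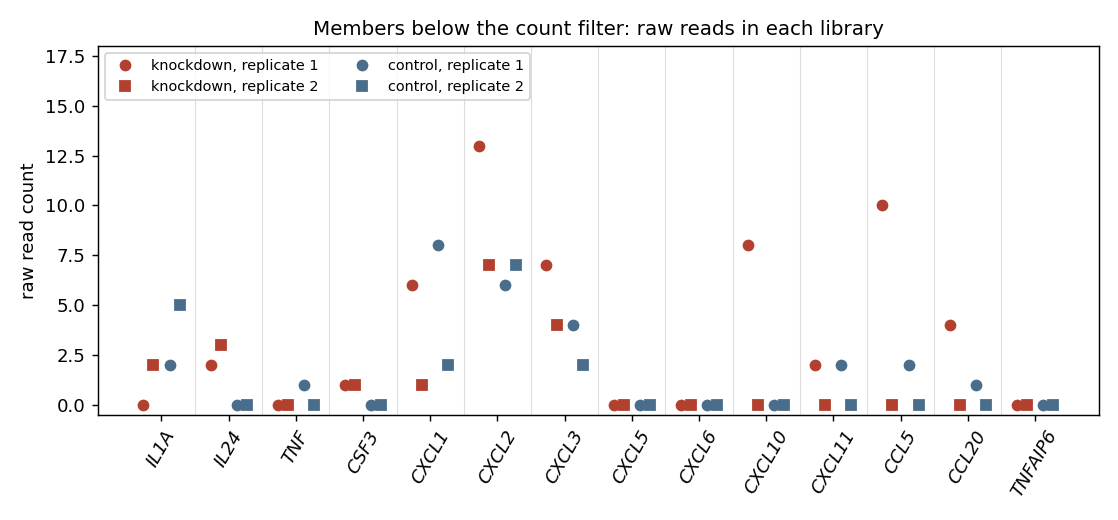
Raw read counts (vertical axis) of the 14 members below the count filter, in the knockdown libraries (red) and the control libraries (blue), with circles for replicate 1 and squares for replicate 2. No library held more than 13 reads of any of these genes, CXCL5, CXCL6 and TNFAIP6 had 0 in all libraries, and the counts of CXCL10, CXCL11, CCL5 and CCL20 lie in replicate 1 libraries.

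Among the cytokines, reads came almost entirely from CSF1. This growth factor of macrophages stood at 1177 and 712.9 CPM in knockdown and 1956 and 720.3 CPM in control. Its groups overlapped and its control libraries lay apart by more than the knockdown differed from control (log2 fold change -0.50, SE 0.47, edgeR adjusted p = 0.561). The CSF1 value was 0.39 without control replicate 1 and -1.05 without control replicate 2, so it rests on which control library is used. CSF2, which encodes GM-CSF, had 1.997 and 0.974 CPM in knockdown and 7.098 and 3.09 CPM in control. Both knockdown libraries were below both control libraries, and the difference did not pass the threshold (log2 fold change -1.78, SE 0.58, edgeR adjusted p = 0.131). CSF2 stood at -2.36 without knockdown replicate 1 and at -2.27 without control replicate 2. It stood at -1.07 without control replicate 1 and at -1.33 without knockdown replicate 2.

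The interleukin and TNF genes were scarce. IL1B, the secreted form of interleukin-1, had 0.761 and 0.599 CPM in knockdown and 1.15 and 1.08 CPM in control (log2 fold change -0.71, SE 0.51, edgeR adjusted p = 0.442). IL1A had 0 and 2 counts in knockdown and 2 and 5 in control, and IL24, a cytokine of the IL-10 family, had 2 and 3 against 0 and 0. CSF3, which encodes G-CSF, had 1 count in each knockdown library and 0 in each control library, and TNF had 1 count in control replicate 1 and none elsewhere. At so few reads these genes hold no detectable difference.

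None of the 3 kinase complex genes passed the threshold, with edgeR, DESeq2 or limma-trend, and none had an unadjusted p under 0.05. The fit with the replicate block called IKBKB, lower. IKBKB, which encodes the catalytic kinase of the classical pathway, had 63.1 and 53.0 CPM in knockdown and 89.0 and 68.5 CPM in control (log2 fold change -0.44, SE 0.24, edgeR adjusted p = 0.326). IKBKE, an IkappaB kinase relative that also acts in interferon signalling and is known as a breast cancer oncogene, had 28.6 and 24.1 CPM in knockdown and 25.9 and 27.1 CPM in control (log2 fold change -0.01, SE 0.25, edgeR adjusted p = 0.99). Its sign was positive with library size alone as the scaling. IKBKG, the regulatory subunit NEMO, stood at a log2 value of 0.11 (SE 0.37, edgeR adjusted p = 0.889), and its counts are uncertain because a near-identical pseudogene copy exists.

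None of the 5 subunit genes passed the threshold with edgeR, DESeq2 or limma-trend, and NFKB2 was the 1 with an unadjusted p under 0.05. The fit with the replicate block called NFKB2 and RELB, both lower. NFKB2, the precursor of the subunit of the alternative pathway, had 57.6 and 37.5 CPM in knockdown and 99.8 and 77.3 CPM in control. Both knockdown libraries were below both control libraries, 1.86-fold in the fit, and the difference did not pass the threshold (log2 fold change -0.90, SE 0.29, edgeR adjusted p = 0.129). Fits that left out 1 library gave values of -1.23 without knockdown replicate 1 to -0.618 without knockdown replicate 2. RELB, the usual partner of NFKB2, had 5.61 and 3.07 CPM in knockdown and 9.60 and 5.26 CPM in control, and its groups overlapped (log2 fold change -0.78, SE 0.46, edgeR adjusted p = 0.357). RELA, the main activating subunit, had 107.9 and 85.5 CPM in knockdown and 120.2 and 94.5 CPM in control, also overlapping (log2 fold change -0.15, SE 0.24, edgeR adjusted p = 0.748). NFKB1, the precursor of the usual partner of RELA, had 59.4 and 63.2 CPM in knockdown and 51.9 and 49.5 CPM in control (log2 fold change 0.27, SE 0.22, edgeR adjusted p = 0.491). REL, a subunit best known from lymphocytes, stood at -0.05 on that scale (SE 0.28, edgeR adjusted p = 0.941).

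Per kilobase of exon, RELA led the subunits in knockdown at 17.7 ± 2.91 CPM per kb (SD, n = 2), and in control RELA at 19.6 ± 3.32 and NFKB2 at 19.7 ± 3.55 CPM per kb did not differ beyond their spread. In knockdown NFKB2 averaged 10.6 ± 3.17 and NFKB1 9.80 ± 0.43 CPM per kb, which also lay within the spread, while in control NFKB1 averaged 8.10 ± 0.27 CPM per kb. RELB and REL came last, at 1.43 ± 0.59 and 1.45 ± 0.26 CPM per kb in knockdown and 2.45 ± 1.01 and 1.503 ± 0.17 CPM per kb in control. Of the REL exons, 5702 bases (43.3%) also belong to AC010733.2 on the same strand, so reads there may not have been counted for REL. Exon lengths were those of GENCODE release 29 on GRCh38, not the annotation behind the counts.

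**Figure D3:**
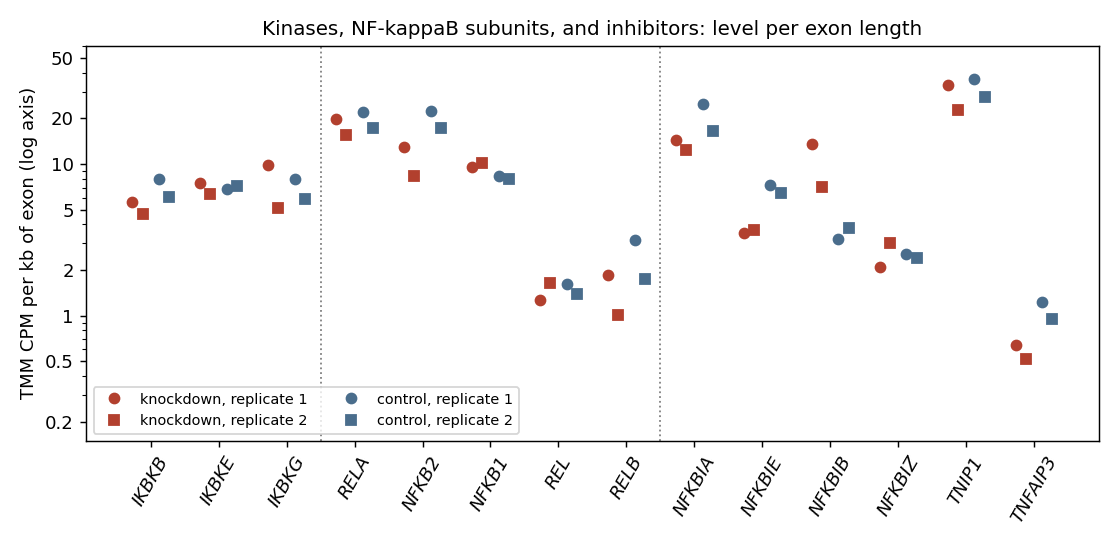
TMM CPM per kilobase of exon (logarithmic vertical axis) of the IkappaB kinases, the NF-kappaB subunits and the inhibitors, separated by dotted lines, in the knockdown libraries (red) and the control libraries (blue), with circles for replicate 1 and squares for replicate 2. RELA stands among the highest subunits in every library, RELB and REL lie at 1.01 to 3.16 CPM per kb, and NFKBIB lies above its control libraries while NFKBIE and TNFAIP3 lie below theirs.

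None of the 6 inhibitor and feedback genes passed the threshold with edgeR or limma-trend, and DESeq2 called NFKBIB. Of the 6 genes, 3 had an unadjusted p under 0.05. The fit with the replicate block called NFKBIB, higher, and NFKBIA, NFKBIE and TNFAIP3, lower. NFKBIB stood at 1.56 on the log2 scale and the other 5 between -0.93 and 0.06, a difference between genes that was not tested. NFKBIB, which encodes IkappaB beta, had 31.5 and 16.5 CPM in knockdown and 7.41 and 8.82 CPM in control. Both knockdown libraries were above both control libraries, 2.94-fold in the fit, and the knockdown libraries were themselves far apart (log2 fold change 1.56, SE 0.38, edgeR adjusted p = 0.0747). Its value was 1.95 without knockdown replicate 2 and 1.69 without control replicate 2. It was 1.03 without knockdown replicate 1 and 1.44 without control replicate 1. In its annotation, 40 bases of its exons (1.72%) lie opposite exons of SIRT2. NFKBIE, which encodes IkappaB epsilon, had 9.03 and 9.51 CPM in knockdown and 18.8 and 16.6 CPM in control. Its groups did not overlap and each was tight, with the knockdown 1.91-fold lower in the fit (log2 fold change -0.93, SE 0.28, edgeR adjusted p = 0.115).

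NFKBIA, which encodes IkappaB alpha and is itself an early NF-kappaB target, had 34.1 and 29.1 CPM in knockdown and 58.8 and 39.4 CPM in control (log2 fold change -0.63, SE 0.28, edgeR adjusted p = 0.232). TNFAIP3, a ubiquitin-editing enzyme that shuts the pathway off, had 3.23 and 2.62 CPM in knockdown and 6.26 and 4.80 CPM in control (log2 fold change -0.92, SE 0.37, edgeR adjusted p = 0.198). For both genes the knockdown libraries were below both control libraries, and neither difference passed the threshold. TNIP1, a ubiquitin-binding partner of TNFAIP3, had 191.5 and 132.4 CPM in knockdown and 209.8 and 160.7 CPM in control, with overlapping groups (log2 fold change -0.19, SE 0.27, edgeR adjusted p = 0.701). NFKBIZ, a nuclear IkappaB that acts on secondary targets, differed by 0.06 on the log2 scale (SE 0.30, edgeR adjusted p = 0.937).

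All 4 tested genes of the survival and TNF-induced group had lower means in knockdown with groups that did not overlap. Of all tested genes, 26.8% did the same. Of the 4 genes, 0 passed the threshold with edgeR, DESeq2 or limma-trend, and 0 had an unadjusted p under 0.05. The fit with the replicate block called BIRC2 and BIRC3, both lower. BIRC2 and BIRC3 encode the cellular inhibitors of apoptosis, ubiquitin ligases that hold the MAP3K14 kinase in check. BIRC2 had 37.3 and 55.5 CPM in knockdown and 66.8 and 65.3 CPM in control (log2 fold change -0.51, SE 0.27, edgeR adjusted p = 0.300), and BIRC3 had 7.51 and 10.4 CPM in knockdown and 18.3 and 11.4 CPM in control (log2 fold change -0.72, SE 0.36, edgeR adjusted p = 0.278). The closest libraries of BIRC3 were knockdown replicate 2 and control replicate 2, about 1 CPM apart. TNFAIP2, a TNF-induced gene, had 107.7 and 96.4 CPM in knockdown and 143.7 and 111.8 CPM in control (log2 fold change -0.32, SE 0.23, edgeR adjusted p = 0.436). TNFAIP8, a TNF-induced gene with a role in cell survival, stood at -0.27 on the log2 scale (SE 0.31, edgeR adjusted p = 0.642), and TNFAIP6, which encodes a hyaluronan-binding protein, had no count in any library.

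Both enzymes of the module had higher values in knockdown, below the threshold with edgeR, DESeq2 and limma-trend. The fit with the replicate block called both. PTGS2, the inducible cyclooxygenase of prostaglandin synthesis, had 3.80 and 3.67 CPM in knockdown and 1.67 and 1.78 CPM in control. The libraries of each group lay close together and the groups apart, 2.16-fold in the fit (log2 fold change 1.11, SE 0.38, edgeR adjusted p = 0.148), on 40 and 49 raw counts in knockdown and 16 and 23 in control. SOD2, the mitochondrial superoxide dismutase, had 92.5 and 118.0 CPM in knockdown and 49.9 and 75.3 CPM in control (log2 fold change 0.75, SE 0.28, edgeR adjusted p = 0.170). Its groups did not overlap, and its exons partly lie opposite those of WTAP and ACAT2.

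**Figure D4:**
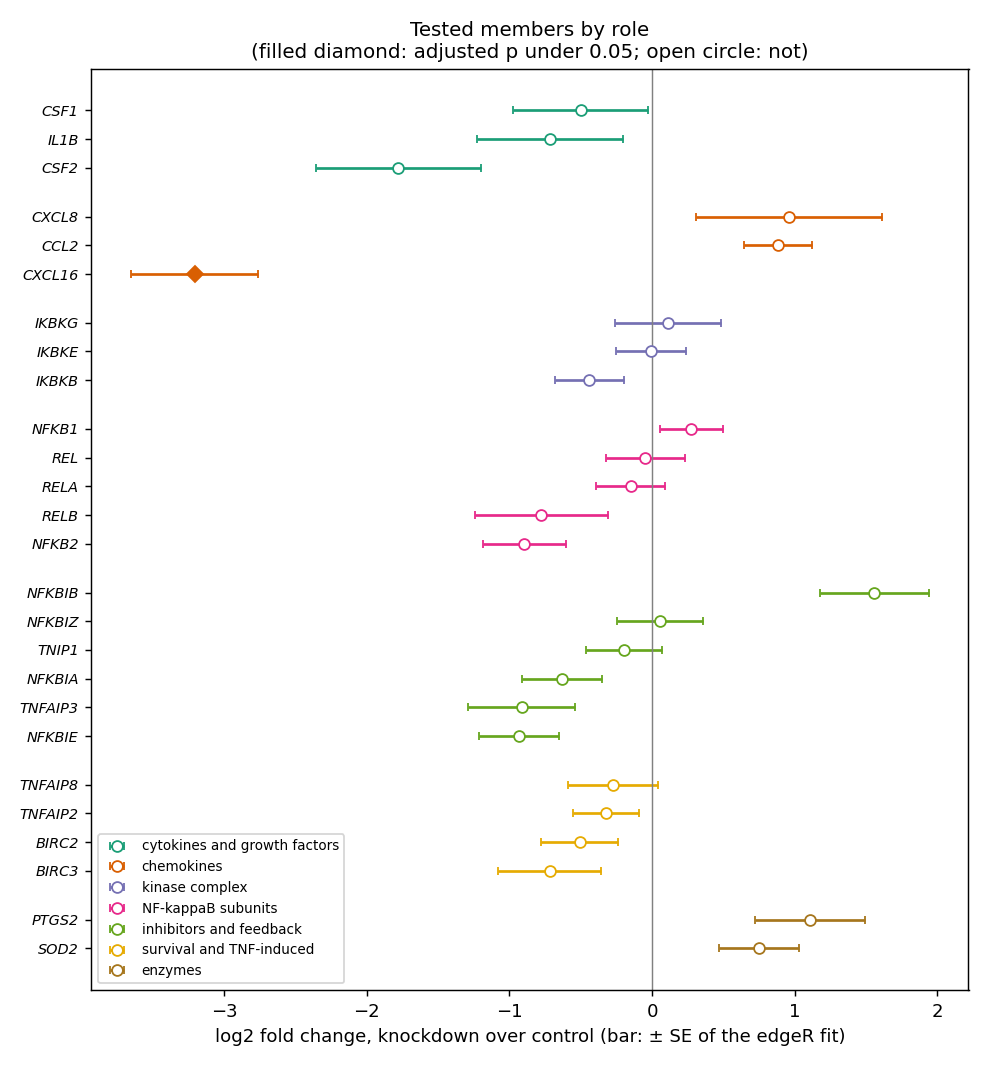
Log2 fold change of knockdown over control (horizontal axis) with the SE of the edgeR fit as a bar for the 26 tested members, coloured by role, with a filled diamond where the adjusted p is under 0.05 and an open circle elsewhere. CXCL16 at -3.21 carries the diamond, 18 values are negative and 8 positive (IKBKE, at -0.01, is positive with library size alone as the scaling), and NFKBIB at 1.56 is the highest.

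The rest of the pathway was read from 5 lists of receptors, adaptors and kinases, regulators, further targets and receptors for the module's own ligands. These lists, like the members, were chosen with earlier results of these data known. Their shares beside those of all tested genes are therefore descriptions and test nothing. Among 18 tested adaptors and kinases, 1 fell and 0 rose, with a median log2 fold change of -0.04, where 2.99% of all tested genes were called. At an unadjusted p under 0.05 there were 7 (38.9%, against 24% of all tested genes), 3 higher and 4 lower. DESeq2 called 1 higher, TRAF3, and 1 lower, where it called 8.55% of all genes. With limma-trend 0 were higher and 1 lower, where it called 3.09% of all genes. TRAF3 did not pass the threshold with edgeR (log2 fold change 1.00, SE 0.24, edgeR adjusted p = 0.0726). The gene that fell was MYD88, the adaptor that links IL-1 and Toll-like receptors to the IRAK kinases, at 56.0 and 61.7 CPM in knockdown and 142.0 and 139.5 CPM in control, 2.39-fold lower (log2 fold change -1.26, SE 0.21, edgeR adjusted p = 0.0396). Both knockdown libraries of MYD88 lay far below both control libraries, and the libraries of each group nearly coincided.

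Among 11 further targets tested, 2 fell and 0 rose, with a median log2 fold change of -1.40 over a list with 7 negative and 4 positive values. That is 18.2% called, against 2.99% of all tested genes. Because the list was chosen with earlier results of these data known, its shares are not a test of the list. At an unadjusted p under 0.05 there were 6 (54.5%, against 24% of all tested genes), 1 higher and 5 lower. DESeq2 called 1 higher, BCL2L1, and 4 lower, where it called 8.55% of all genes. With limma-trend 0 were higher and 2 lower, where it called 3.09% of all genes. BCL2L1 did not pass the threshold with edgeR (log2 fold change 1.03, SE 0.21, edgeR adjusted p = 0.0576). ICAM1, an adhesion molecule for leukocytes, had 1.62 and 1.72 CPM in knockdown and 20.98 and 8.43 CPM in control (log2 fold change -3.12, SE 0.52, edgeR adjusted p = 0.0399). IER3, an early response gene that acts in survival, had 54.8 and 39.6 CPM in knockdown and 265.3 and 125.7 CPM in control, 4.14-fold lower (log2 fold change -2.05, SE 0.39, edgeR adjusted p = 0.0471). In both genes the knockdown libraries lay below both control libraries, and the control libraries lay far apart, with replicate 1 the higher. Without control replicate 1 the log2 fold change was -2.32 for ICAM1 and -1.41 for IER3. IER3 missed the threshold when the filter was raised to a mean of 5 CPM (edgeR adjusted p = 0.0559). The other 8 genes of the 19 on that list were below the filter, VCAM1 and CFB with no count in any library.

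In the receptor and regulator lists no gene passed the threshold with edgeR, DESeq2 or limma-trend. At an unadjusted p under 0.05 there were 4 receptors (44.4%) and 3 regulators (18.8%), against 24% of all tested genes. With the replicate block, which called 40.1% of all tested genes, 2 receptors were higher and 4 lower, and 2 regulators higher and 3 lower. Of 9 receptor genes tested, the smallest p-values were those of IL1RAP, the accessory chain of the IL-1 receptor, at 7.89 and 10.2 CPM in knockdown and 19.1 and 18.5 CPM in control (log2 fold change -1.05, SE 0.29, edgeR adjusted p = 0.0969), and of TLR4, the receptor of bacterial lipopolysaccharide, at 12.2 and 13.6 CPM in knockdown and 24.1 and 24.7 CPM in control (log2 fold change -0.92, SE 0.26, edgeR adjusted p = 0.101). Of 16 regulators tested they were those of CYLD, a deubiquitinase that restrains the pathway, at 51.2 and 65.9 CPM in knockdown and 96.8 and 94.4 CPM in control (log2 fold change -0.71, SE 0.23, edgeR adjusted p = 0.134), and NKIRAS2, an IkappaB-binding small GTPase, at 118.8 and 79.1 CPM in knockdown and 63.3 and 55.5 CPM in control (log2 fold change 0.74, SE 0.27, edgeR adjusted p = 0.163). The medians were -0.42 for the receptors and 0.01 for the regulators.

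Receptors for the module's ligands were mostly without reads or below the filter. Of 17 such genes, 7 had no count in any library, among them CXCR6, the receptor of CXCL16, and CXCR1 and CXCR2, the receptors of CXCL8, and 4 were tested. Of the tested genes, IL22RA1, a chain of the IL-24 receptor, had 4.18 and 3.52 CPM in knockdown and 12.6 and 9.59 CPM in control (log2 fold change -1.53, SE 0.34, edgeR adjusted p = 0.0643). CSF1R, the receptor of CSF1, passed the filter only through its control libraries, with 4 and 6 raw counts in knockdown and 17 and 22 in control (log2 fold change -2.03, SE 0.51, edgeR adjusted p = 0.0798). Neither passed the threshold with edgeR. There, 3 of the 4 genes (75%, against 24% of all tested genes) had an unadjusted p under 0.05. With DESeq2, which called 8.55% of all genes, IL22RA1 passed (log2 fold change -1.54, DESeq2 adjusted p = 0.0206). IL22RA1 stood at -1.65 without knockdown replicate 1 and at -1.71 without control replicate 2. It stood at -1.31 without control replicate 1 and at -1.40 without knockdown replicate 2.

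**Figure D5:**
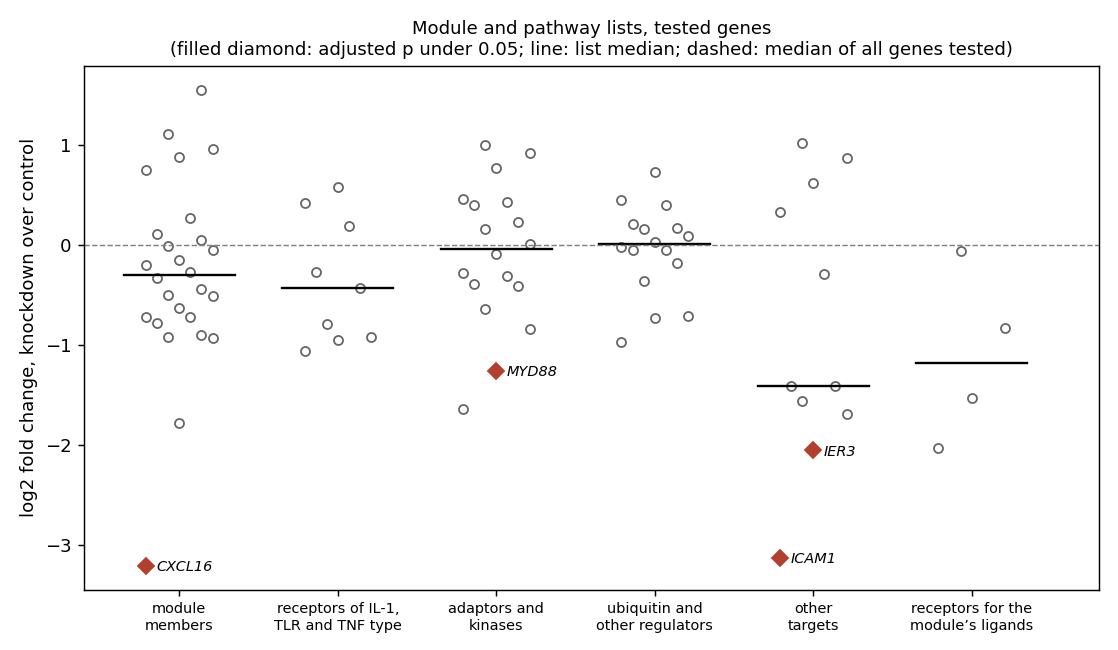
Log2 fold change of knockdown over control (vertical axis) of the tested genes of the module and of 5 pathway lists, with the list median as a line, the median of all tested genes as a dashed line and filled diamonds where the adjusted p is under 0.05. CXCL16, MYD88, ICAM1 and IER3 carry diamonds, all below 0, and the medians of the further targets (-1.40) and of the ligand receptors (-1.18, over 4 genes) lie below the dashed line.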

How the data were processed

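Gene-level counts of 4 RNA-seq libraries were used, 2 knockdown and 2 control, grouped by their sample descriptions. The authors deposited raw counts of reads per gene symbol, not normalized. Tools named in the submitters' processing notes, with no role attached, are cutadapt, HTSeq 0.6.1, STAR 2.5.2b and limma, and both hg19 and GRCh37 appear as builds. No source used here gives the annotation, strand setting or filters. Trizol extraction and Illumina TruSeq library preparation are recorded per the labels' protocols.

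Counts were fitted with edgeR 4.0.16 in R 4.3.3 (TMM scaling, filterByExpr with a minimum count of 10 and a minimum total of 15, quasi-likelihood test without covariates, Benjamini-Hochberg adjustment over all 13022 tested genes, threshold 0.05). At the depths here 1 count is 0.0749 to 0.104 CPM. The labels do not say whether replicates were separate cultures, and the p-values describe only the spread among these libraries, which may be technical. The members and lists were chosen with earlier results of these data known. Values per library were given for called members, members with an unadjusted p under 0.05, the 2 highest tested members of each role, and called pathway genes or, in lists with none, the 2 with the smallest p. IL1B, CXCL8, NFKB1, RELB and BIRC3 were added to these after their values were seen. Alternatives included DESeq2 1.42.0 and limma-trend (limma 3.58.1).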

Additional observations from a re-analysis of the deposited data

How the results depend on the processing

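CXCL16 was called in each of the 12 alternatives that tested it (log2 fold change -3.45 to -2.92), and with a mean of at least 5 CPM it was not tested and 0 members were lower. With no filter on low counts, 826 genes were higher and 1123 lower, 10.5% of the 18632 tested. Of 37 members in that fit, 5 were called: CCL2 and NFKBIB, higher, and CSF2, CXCL16 and NFKB2, lower. DESeq2 called 457 genes higher and 673 lower, 8.55% of those tested. Among members it called CXCL16 lower and NFKBIB higher (log2 fold change 1.55, DESeq2 adjusted p = 0.0073). Leaving out 1 library gave 198 to 363 genes higher and 407 to 572 lower, 1 member higher each time and 1 to 3 lower, and a median over the members of -0.434 to -0.0815. Over the same fits the value ran from -1.05 to 0.393 for CSF1, -0.434 to 0.513 for IKBKG, -0.128 to 0.113 for IKBKE, -0.239 to 0.127 for REL, -0.323 to 0.0354 for RELA, -0.234 to 0.3 for NFKBIZ and -0.48 to 0.0492 for TNIP1, all of which changed sign. IKBKE was at 0.00898 with library size alone. The cause of these shifts was not tested.

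The replicate numbers are shared between the groups, and the library numbers in the titles run in consecutive pairs by replicate, but no label says that either marks a shared culture or batch. The difference between replicates 1 and 2 correlated between knockdown and control with r = 0.639 across tested genes, which are not independent. With the replicate block, 2517 genes were higher and 2710 lower (40.1% of those tested), and 15 of 26 members were called, 5 higher and 10 lower. The 14 added to CXCL16 were CXCL8, CCL2, NFKBIB, PTGS2 and SOD2, higher, and CSF2, IKBKB, NFKB2, RELB, NFKBIA, NFKBIE, TNFAIP3, BIRC2 and BIRC3, lower. The block also called 6 of 9 receptors, 8 of 18 adaptors and kinases, 5 of 16 regulators, 8 of 11 further targets and 3 of 4 ligand receptors. RLE size factors, upper-quartile scaling, limma-trend and the summed CXCL1, CXCL2 and CXCL3 left the calls among members as they were. For 9 named pathway genes and TRMT13 the same settings were added after seeing the data, and MYD88 and ICAM1 stayed called in each. Depth limits the 14 members below the filter, each with at most 13 counts in a library.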
